A study of Mus musculus with 36 samples.

Results

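The atria of CUG960 mice that had been taken off doxycycline (+/-dox) were compared with the atria of mice that stayed on it (+dox), across all expressed genes. The comparison used 6 of the 36 RNA-Seq libraries of the series, 3 per cohort, chosen by tissue and cohort and not by any measured value. CUG960 mice carry the TREDT960I transgene (homozygous), a human DMPK gene with an interrupted CTG repeat tract behind a tetracycline response element, and MHCrtTA (hemizygous), a transactivator driven by the α-myosin heavy chain promoter. This promoter is active in cardiomyocytes, and which cells held repeat RNA was not measured here. In both cohorts dox chow was given from postnatal day 1 (P1), and all animals were killed at 21 weeks of age. The +dox animals stayed on dox throughout and received no AAV vector, and the +/-dox animals went off dox at 9 weeks and were harvested 12 weeks later. Another cohort of the same genotype was never given dox (-dox), and its atria are given alongside. The drug and the repeat RNA were withdrawn together, so their effects cannot be told apart here, and none of the sequenced cohorts received dox without the transgene.

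In myotonic dystrophy type 1 (DM1) the DMPK gene holds an expanded tract of CTG repeats. The RNA carrying the expanded CUG repeat stays in nuclear foci and binds MBNL proteins, which regulate alternative splicing, polyadenylation and the stability and localization of mRNA. In the heart the disease is known for slowed conduction, and atrial arrhythmia is a common form of rhythm disturbance in patients. The atria conduct through connexins and sodium channels, hold the pacemaker tissue of the sinoatrial node at their border, and secrete natriuretic peptides.

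Estimated read totals, rounded to 3 digits, were 62500000 to 85800000 in +dox, 55000000 to 72500000 in +/-dox and 69200000 to 74600000 in -dox atria. The labelled tissue was checked against its markers. The summed level of 12 atrial markers was 44000 to 65700 TPM (a level scaled by transcript length and library size) in the 6 libraries and 558 to 1180 TPM in the 6 ventricular libraries of the same cohorts. The summed ventricular markers were at 98.6 to 136 TPM in +dox and 126 to 415 TPM in +/-dox atria. In -dox atria they were at 62.0, 60.9 and 833 TPM in replicates 1, 2 and 3. Replicate 3 of each atrial cohort came from another set of libraries than replicates 1 and 2, by the prefix of the library names. Those 3 replicates also held Xist, the RNA of the inactive X chromosome, at 25.8 to 41.2 TPM, against 0.02 to 0.05 TPM in the others, so library set and sex coincided but were balanced between the cohorts. The transgene is not among the rows of the table, and the level of the repeat RNA was not measured here. Mouse Dmpk itself was at 369, 380 and 366 TPM in +dox and at 321, 312 and 306 TPM in +/-dox atria, and was not called (log2 fold change -0.19 ± 0.09, edgeR adjusted p = 0.171).

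Withdrawal of dox was followed by changes in 767 genes of the 19231 tested, 3.99% of them, with 386 higher (2.01%) and 381 lower (1.98%) in +/-dox than in +dox atria. Calls needed a fold change of 1.5 or more and, in edgeR's quasi-likelihood test, a Benjamini-Hochberg adjusted p below 0.05. At an adjusted p below 0.05 alone, 2426 genes differed (12.6%), 1039 higher and 1387 lower. Among the called genes 306 changed at least 2-fold and 87 at least 4-fold. The libraries of the cohorts did not overlap in 752 of the 767 called genes, against 34.1% of all genes tested. Of the genes that were higher, 74.1% were protein-coding and 58 were long noncoding, and of those that were lower 88.5% were protein-coding and 23 were long noncoding. Protein-coding genes made up 78.0% of all genes tested, and 1892 of the 19231 were long noncoding. Most of the called genes were of moderate level, with a median of 3.71 TPM for those that were higher and 5.63 TPM for those that were lower, against 4.87 TPM over all genes tested. Of the called genes 27 reached 100 TPM, 20 of them higher and 7 lower, and of all genes tested 976 did (5.08%). In tissue RNA, fewer cells of a type and less RNA per cell cannot be told apart. The number of calls was 486 when +dox replicate 1 was left out.

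**Figure D1:**
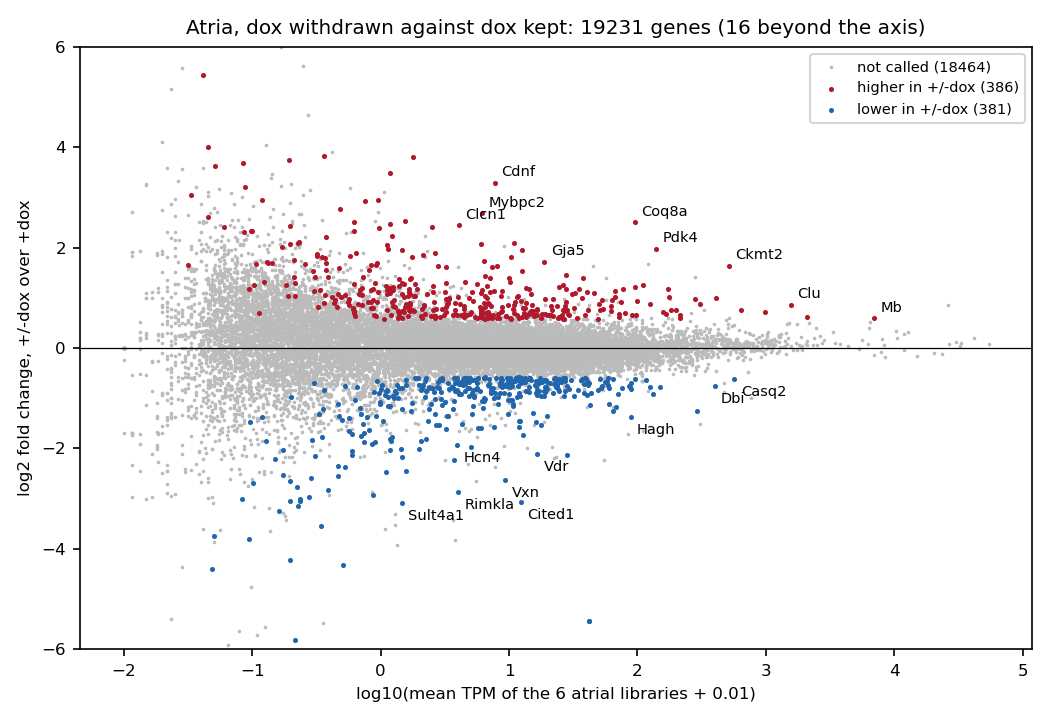
Log2 fold change of each of the 19231 tested genes between +/-dox and +dox atria (y axis, 16 genes beyond it) against the log10 of its mean TPM over the 6 libraries plus 0.01 (x axis), with the 386 genes called higher in red, the 381 called lower in blue and named examples. The changed genes lie on both sides of zero at all levels, and Coq8a, Pdk4 and Ckmt2 stand out among abundant genes that were higher.

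Genes of energy storage and fatty acid use were called in 1 direction, higher after withdrawal. Ckmt2, the mitochondrial creatine kinase that loads phosphate onto creatine (chromosome 13, 91853387-91876885, GRCm38, minus strand), was at 296, 264 and 217 TPM in +dox atria and at 776, 795 and 763 TPM in +/-dox atria. The cohorts lay far apart, and the change was 3.12-fold (log2 fold change 1.64 ± 0.12 SE, edgeR adjusted p = 1.2e-11, n = 3 per cohort). Coq8a, a mitochondrial kinase-like protein needed for coenzyme Q synthesis, was at 30.1, 28.9 and 29.6 TPM with dox and at 163, 160 and 159 TPM without, a 5.72-fold rise (edgeR adjusted p = 3.46e-10). The replicates of Coq8a within a cohort differed by only a few TPM. Of 11 tested genes of the creatine and adenylate kinase shuttle, 2 were called higher, Ckmt2 and Ak4, and none lower. The median log2 fold change of the list was -0.22. At an adjusted p below 0.05 alone in edgeR, 3 of the 11 were higher and 3 were lower. Ak4, a mitochondrial adenylate kinase, was at 5.63 to 6.31 TPM with dox and 8.65 to 9.61 TPM without, and it missed the fold threshold without +dox replicate 3 (log2 fold change 0.56). Ckm, the cytosolic muscle creatine kinase, was at 496 to 582 TPM and 652 to 749 TPM, which passed the adjusted p of edgeR (0.0143) but not the fold threshold (1.28-fold).

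Among 42 tested genes of fatty acid use, 7 rose and none fell, and 36 of the 42 fold changes were above zero, with a median log2 fold change of 0.18 against 0.03 over all genes tested. Pdk4, the kinase that switches off pyruvate dehydrogenase and so spares glucose, was at 53.5, 66.0 and 57.4 TPM with dox and at 178, 264 and 224 TPM without. Its rise was 3.94-fold, with a wide error (log2 fold change 1.98 ± 0.50, edgeR adjusted p = 0.00918). Pnpla2, the lipase that opens stored triglyceride, rose from 119, 145 and 149 TPM to 237, 219 and 222 TPM (1.70-fold, edgeR adjusted p = 4.22e-05). Ucp2, a mitochondrial carrier, rose from 82.3 to 103 TPM with dox to 153 to 169 TPM without (1.83-fold). Ucp3, the muscle form of that carrier, was at 1.88, 3.85 and 1.16 TPM with dox and at 9.49, 12.5 and 7.07 TPM without (log2 fold change 2.07 ± 0.53). Its call was lost without +dox replicate 1 (log2 fold change 1.97), without +dox replicate 3 (1.74) and without +/-dox replicate 2 (1.71). Slc27a1, a fatty acid transporter, was at 51.8 to 61.9 TPM and 79.5 to 92.9 TPM, and rose 1.53-fold.

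Angptl4, a secreted inhibitor of lipoprotein lipase that fatty acids induce, was at 0.54, 1.21 and 0.69 TPM with dox and at 2.74, 4.58 and 5.17 TPM without. Angptl4 kept its call when +/-dox replicate 1 was dropped and lost it when any other library was, and its log2 fold change was then 2.21 (without +dox replicate 1), 2.84 (without +dox replicate 2), 2.27 (without +dox replicate 3), 2.26 (without +/-dox replicate 2) and 2.28 (without +/-dox replicate 3).

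Promoter windows of 3 members that rose are shown because these genes lead the energy lists and are often studied as targets of nuclear receptors in muscle. Each holds 250 bases before and 50 bases after a RefSeq transcription start (GRCm38.p6), written 5′ to 3′ on the gene's strand, and the capitals mark AGGTCA, the half-site letters of nuclear receptors, searched on both strands.
Ckmt2, chr13:91876836-91877135, minus strand: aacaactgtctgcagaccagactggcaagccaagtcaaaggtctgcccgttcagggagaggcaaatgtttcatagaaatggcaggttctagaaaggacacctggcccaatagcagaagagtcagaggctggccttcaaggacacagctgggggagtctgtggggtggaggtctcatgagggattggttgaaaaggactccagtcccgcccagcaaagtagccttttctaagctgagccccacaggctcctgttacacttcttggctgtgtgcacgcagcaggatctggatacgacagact
Pdk4, chr6:5496229-5496528, minus strand: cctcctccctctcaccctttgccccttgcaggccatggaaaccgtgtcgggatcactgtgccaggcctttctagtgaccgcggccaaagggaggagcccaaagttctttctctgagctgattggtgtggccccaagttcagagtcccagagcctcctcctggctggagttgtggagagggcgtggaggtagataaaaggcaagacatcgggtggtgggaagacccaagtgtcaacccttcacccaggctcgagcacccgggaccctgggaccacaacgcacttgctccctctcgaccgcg
Ucp3, chr7:100472741-100473040, plus strand: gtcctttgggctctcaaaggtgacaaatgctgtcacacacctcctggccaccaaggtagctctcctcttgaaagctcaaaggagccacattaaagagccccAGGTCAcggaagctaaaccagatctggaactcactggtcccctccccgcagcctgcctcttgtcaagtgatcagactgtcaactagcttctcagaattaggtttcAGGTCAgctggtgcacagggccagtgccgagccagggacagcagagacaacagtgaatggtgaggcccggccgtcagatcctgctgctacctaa
The Ucp3 window held AGGTCA at -149 and -44, counted from the first transcribed base as 0, and the Ckmt2 and Pdk4 windows held none. Of the 9 called members of the 2 lists, 7 had windows, 12 in all, and 2 of the 12 held AGGTCA, one of Ucp3 and one of Ak4. Of all 32851 windows, 16.3% held it. The E-box letters CANNTG were in 9 of the 12 and in 72.3% of all windows.

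Some other lists of energy and mitochondrial genes held no called member. None of 46 genes of glucose use, 83 nuclear genes of the respiratory chain, 13 protein genes of mitochondrial DNA or 78 mitochondrial ribosome genes was called in edgeR or DESeq2, and their median log2 fold changes lay between -0.11 and 0.07. At an unadjusted p below 0.05 there were 9, 7, 3 and 23 of them in edgeR, where 25.2% of all genes tested had such a p. Of the 78 mitochondrial ribosome genes, 57 had fold changes below zero. By adjusted p below 0.05 alone in edgeR 9 of them were lower and 3 higher, where 12.6% of all genes tested passed. Mb, myoglobin, which stores oxygen in muscle, was among the most abundant genes called, at 5990, 6040 and 4820 TPM with dox and 8490, 8510 and 7850 TPM without (1.52-fold). It stood just past the fold threshold and fell short of it without +dox replicate 3 (log2 fold change 0.46) and without +/-dox replicate 2 (0.52). mt-Rnr2, the large ribosomal RNA of mitochondria, was at 1600, 1900 and 1550 TPM against 2570, 2580 and 2240 TPM (1.53-fold, edgeR adjusted p = 0.00131), in libraries selected for poly(A), and missed the fold threshold without +dox replicate 3 (log2 fold change 0.52) or +/-dox replicate 2 (0.52).

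**Figure D2:**
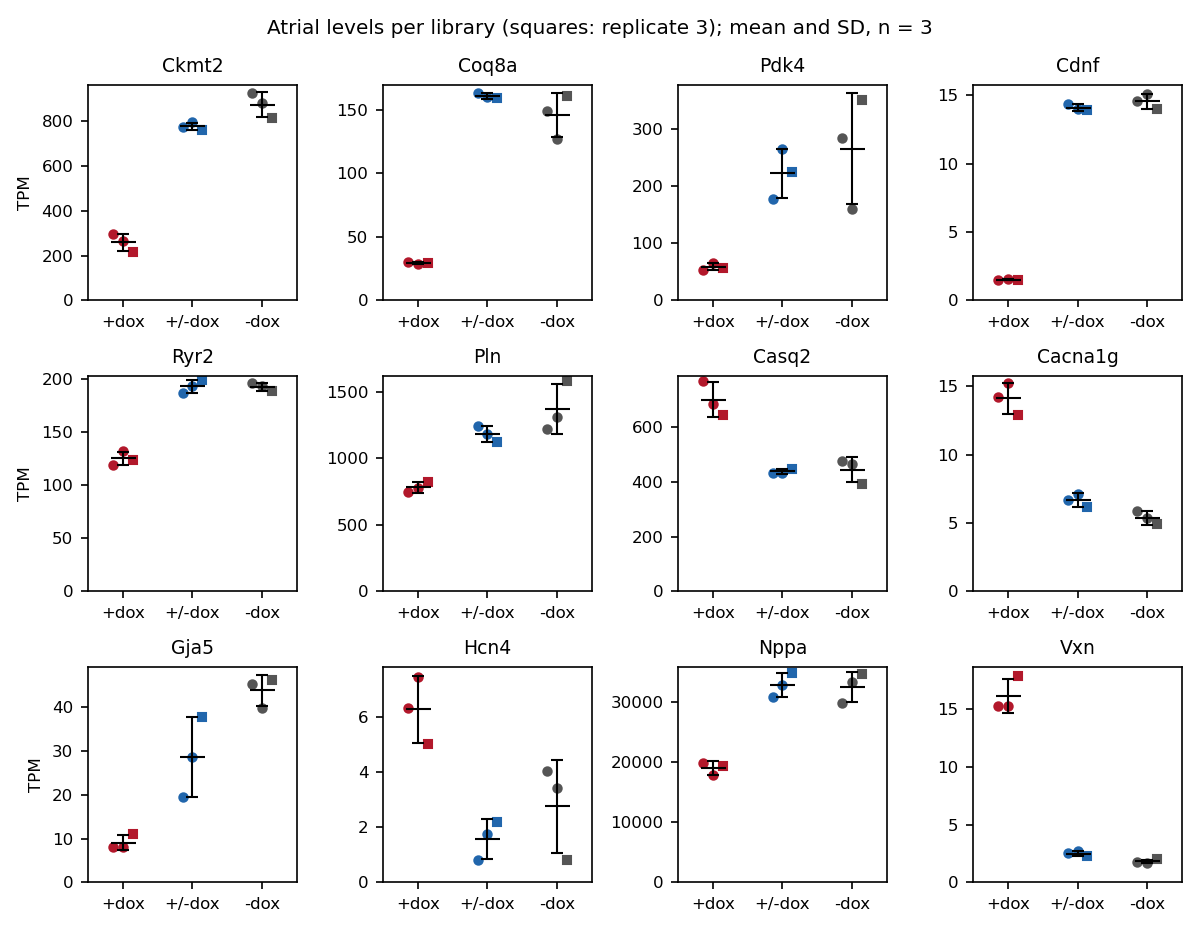
TPM (y axes, from zero) of 12 genes in each atrial library of the +dox (red), +/-dox (blue) and -dox (grey) cohorts, with squares for replicate 3 and bars for the mean and SD of 3 libraries. Ckmt2, Coq8a, Cdnf, Ryr2 and Vxn show +/-dox libraries close to those of -dox mice and apart from +dox, while Gja5 lies between and Hcn4 is spread.

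Genes of calcium release were called in both directions. Ryr2, the channel that releases calcium from the sarcoplasmic reticulum, was at 119, 132 and 124 TPM with dox and at 187, 193 and 199 TPM without (log2 fold change 0.72 ± 0.07, edgeR adjusted p = 1.39e-08). Pln, phospholamban, which restrains the calcium pump, rose from 745, 778 and 825 TPM to 1240, 1180 and 1120 TPM (1.64-fold, edgeR adjusted p = 2.69e-05). The cohorts did not overlap for either gene. Casq2, calsequestrin, which holds calcium inside the store, fell from 770, 685 and 645 TPM to 434, 433 and 448 TPM (log2 fold change -0.62 ± 0.13), and missed the fold threshold without +dox replicate 1 (-0.50). Tmem38b, a potassium channel of the same store, fell from 19.9 to 23.3 TPM to 11 to 15.6 TPM, a call lost without +dox replicate 1 (log2 fold change -0.48) and without +/-dox replicate 3 (-0.44).

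With Ryr2 and Pln higher and Casq2 and Tmem38b lower, 4 of the 37 tested genes of calcium release and uptake were called, and the median log2 fold change of the list was -0.01. The calcium pump gene Atp2a2 was at 5430, 5920 and 5310 TPM with dox and 6950, 7380 and 6850 TPM without, and Asph, whose products include junctin and aspartyl hydroxylase, was at 164, 158 and 153 TPM against 135, 131 and 135 TPM. The reads of Ryr2 and Casq2 overlap those of small genes annotated on the same strand and their split is uncertain. Atp2a2 and Asph passed the adjusted p of edgeR (0.00116 and 0.000884) but neither reached 1.5-fold.

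Ion channel genes were called mostly in the lower direction, a lean that the adjusted p alone did not show. Of 23 tested sodium and calcium channel genes 4 were lower and 1 was higher. Of 35 potassium channel genes 5 were lower and 1 was higher. Over all genes tested 1.98% were called lower and 2.01% higher. At an adjusted p below 0.05 alone in edgeR, 4 sodium and calcium channel genes were lower and 3 higher. For potassium channel genes it was 6 lower and 6 higher. The median log2 fold changes of the lists were near zero at -0.08 and -0.04. Cacna1d, an L-type calcium channel of atria and node, fell from 9.51, 10.4 and 8.79 TPM to 4.99, 5.09 and 4.90 TPM (log2 fold change -0.89 ± 0.13, edgeR adjusted p = 1.9e-05). Cacna1g, a T-type calcium channel, fell from 14.2, 15.2 and 12.9 TPM to 6.71, 7.13 and 6.16 TPM (log2 fold change -1.03 ± 0.29, edgeR adjusted p = 0.0191). Scn4b, a sodium channel beta subunit, fell from 14.5, 16.3 and 12.6 TPM to 7.32, 7.37 and 5.57 TPM (log2 fold change -1.04 ± 0.27). The libraries of the cohorts did not overlap for these channels, and the main ventricular L-type channel gene Cacna1c was at 32.4 to 34.0 TPM with dox and 33.7 to 37.3 TPM without. The call of Scn4b was lost without +/-dox replicate 3 (log2 fold change -0.89), and that of Cacna1g without +dox replicate 1 (-0.98), +dox replicate 2 (-0.97), +/-dox replicate 1 (-1.02) or +/-dox replicate 3 (-0.94). Cacnb4, the other gene that fell, lost its call without +dox replicate 1 (-0.60) or +/-dox replicate 1 (-0.72).

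Among potassium channels the largest falls were in genes of low level. Kcnk1, a background channel, was at 1.05, 0.81 and 0.43 TPM with dox and 0.17, 0.08 and 0.19 TPM without, and Kcne1, a subunit of the slow delayed rectifier, was at 0.08 to 0.49 TPM and 0.01 to 0.11 TPM, which overlapped. Kcna4, which carries a transient outward current, was at 3.52, 3.22 and 3.98 TPM with dox and 2.31, 2.04 and 2.40 TPM without (1.53-fold lower, edgeR adjusted p = 0.0134), and was not called without +dox replicate 1 (log2 fold change -0.58) or +dox replicate 3 (-0.58). Kcnj14, an inward rectifier, fell from 2.27, 2.25 and 1.21 TPM to 0.55, 0.50 and 0.31 TPM, and lost its call without +dox replicate 1 (log2 fold change -1.86) and without +/-dox replicate 3 (-1.79). Kcnn1, a calcium-activated potassium channel, fell from 9.19 to 10.2 TPM to 6.00 to 6.65 TPM. Kcnv2, a silent subunit that modifies other potassium channels, was the one that rose, from 1.89, 2.74 and 2.27 TPM to 5.44, 4.46 and 3.16 TPM, and it was not called without +dox replicate 1 (log2 fold change 0.89) or +/-dox replicate 1 (0.81). Clcn1, the chloride channel whose loss causes myotonia in skeletal muscle, was at 1.43, 1.23 and 1.23 TPM with dox and at 6.53, 6.28 and 7.74 TPM without, a 5.45-fold rise (log2 fold change 2.44 ± 0.22, edgeR adjusted p = 2.99e-09). It was the one called gene among 15 chloride channel genes tested.

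Of the genes that pass the impulse on, Gja5 and Gja1 rose. Gja5, connexin 40 of atria and conduction system (chromosome 3, 96904693-97077416, plus strand), was at 8.16, 8.09 and 11 TPM with dox and at 19.5, 28.6 and 37.8 TPM without (log2 fold change 1.72 ± 0.21, edgeR adjusted p = 2.14e-06). All +/-dox values lay above all +dox values and below the 45.4, 39.9 and 46.3 TPM of -dox atria. The direct comparison of -dox with +/-dox gave a log2 difference of 0.59 for Gja5 with an edgeR adjusted p of 0.784. Gja1, connexin 43, rose from 130, 135 and 133 TPM to 186, 212 and 212 TPM (1.60-fold), falling just short of the fold threshold without +/-dox replicate 2 (log2 fold change 0.58). Of 24 genes of connexins and the intercalated disc, 2 were lower. Pkp4, a plakophilin of the junction, fell from 162, 173 and 149 TPM to 90.8, 93.7 and 87.2 TPM (1.72-fold, edgeR adjusted p = 2.27e-07), and Popdc3, a Popeye protein that binds cyclic AMP, from 23.6, 24.1 and 22.8 TPM to 14.4, 10.9 and 9.77 TPM.

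Hcn4, the pacemaker channel of the sinoatrial node, was at 6.34, 7.47 and 5.03 TPM with dox and at 0.80, 1.74 and 2.20 TPM without. It was the one called gene of 16 tested pacemaker and node genes (log2 fold change -1.93 ± 0.54, edgeR adjusted p = 0.019). The -dox libraries held Hcn4 at 4.04, 3.41 and 0.83 TPM, overlapping the +/-dox range, and how much node tissue each sample took in was not recorded in the sources used here. Its call was lost without +dox replicate 1 (log2 fold change -1.89), +dox replicate 2 (-1.79) or +/-dox replicate 1 (-1.62).

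Most sarcomere genes had small fold changes above zero. Of the 41 tested, 28 were above zero with a median log2 fold change of 0.20, and 8 passed the adjusted p alone, 6 higher and 2 lower. Of these 1 was called, Pdlim3, an actin-binding protein of the Z disc, which fell from 117, 91.6 and 70.3 TPM to 44.9, 46.7 and 52.5 TPM. The Pdlim3 call was lost without +dox replicate 1 (log2 fold change -0.67), +dox replicate 2 (-0.94) or any 1 of +/-dox replicates 1 (-0.87), 2 (-0.96) and 3 (-0.95). Tnnt2, cardiac troponin T, passed the adjusted p of edgeR (0.000228) at 1.43-fold, from 5430, 5570 and 5180 TPM to 7490, 7830 and 6940 TPM, while Myh6 was at 9170 to 10500 TPM and 10300 to 11300 TPM.

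Of 23 tested fast skeletal muscle genes 4 rose and 1 fell. Mybpc2, the fast skeletal myosin-binding protein C, rose from 1.99, 1.73 and 1.34 TPM to 9.46, 9.36 and 13.3 TPM (6.48-fold, edgeR adjusted p = 3.33e-05). Among genes of low level, Tnnt3, fast troponin T, was at 0.22, 0.21 and 0.19 TPM with dox and at 1.20, 2.21 and 3.07 TPM without, and Tnni2, fast troponin I, was at 0.50 to 0.71 TPM and 1.20 to 2.86 TPM. The fourth was Clcn1, which also stands in the chloride channel list. Myh8, the perinatal myosin heavy chain, fell from 2.24, 2.31 and 1.05 TPM to 0.46, 0.45 and 0.60 TPM. Leaving out +dox replicate 1 (log2 fold change -1.66), +dox replicate 2 (-1.68), +/-dox replicate 1 (-1.79), 2 (-1.85) or 3 (-1.96) each took the call of Myh8 away.

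Of 21 tested natriuretic and hypertrophy genes 3 rose (Corin, Nmrk2 and Npr2) and 1 fell (Furin), with a median log2 fold change of 0.23. Nppa, atrial natriuretic peptide, was among the most abundant transcripts of the atria, at 19900, 17800 and 19400 TPM with dox and at 30900, 32900 and 34800 TPM without. The cohorts did not overlap, yet Nppa was not called when all 36 libraries were fitted (log2 fold change 0.86 ± 0.50, edgeR adjusted p = 0.299), a fit that shares 1 estimate of spread with the ventricles. Fitted on the 18 atrial libraries alone, where 986 genes were called (5.36%), its log2 fold change of 0.84 ± 0.16 passed (edgeR adjusted p = 0.00177). Corin, the protease that activates Nppa's peptide, rose from 61.0, 77.5 and 70.7 TPM to 127, 128 and 128 TPM (1.91-fold, edgeR adjusted p = 1.4e-05). Furin, a protease that cuts many precursor proteins, fell from 113, 117 and 108 TPM to 62.5, 61.0 and 65.2 TPM (log2 fold change -0.79 ± 0.11, edgeR adjusted p = 3.8e-06). Nmrk2, a nicotinamide riboside kinase of stressed muscle, rose from 2.23, 2.33 and 3.51 TPM to 4.95, 6.46 and 7.75 TPM (2.51-fold, edgeR adjusted p = 0.000681). Npr2, a natriuretic peptide receptor, was at 1.50-fold and fell under the fold threshold without +dox replicate 1 (log2 fold change 0.53), +dox replicate 2 (0.58), +/-dox replicate 2 (0.56) or +/-dox replicate 3 (0.57). Nppb, the related peptide gene, was at 170, 99.2 and 155 TPM and 215, 199 and 196 TPM and was not called (edgeR adjusted p = 0.33).

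The adjusted p of another atrial gene also depended on the fit. Sln, sarcolipin, the atrial regulator of the calcium pump, was at 1300, 1290 and 1300 TPM and 1710, 1770 and 1760 TPM, which was 1.41-fold and under the fold threshold in either fit (edgeR adjusted p = 0.693 with 36 and 2.71e-05 with 18 libraries). Clu, the secreted chaperone clusterin, was the called member of the 12 atrial markers, at 1010, 1240 and 1210 TPM with dox and at 1970, 2090 and 1930 TPM without (1.82-fold, edgeR adjusted p = 1.44e-07). Myl7, the atrial myosin light chain, was at 10100 to 11800 TPM and 11800 to 14000 TPM, and Myl2, its ventricular counterpart, was at 46.8 to 73.0 TPM and 76.5 to 288 TPM. The part of ventricular tissue in these changes was not tested. Of 32 chamber transcription factors 1 was called, Cited1, a transcriptional coregulator, which fell from 21.4, 25.5 and 20.1 TPM to 2.85, 2.24 and 2.53 TPM (8.41-fold, edgeR adjusted p = 3.69e-06).

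Among protein-folding genes, Cdnf made the largest change. Cdnf, a secreted neurotrophic factor that resides in the endoplasmic reticulum (chromosome 2, 3513030-3526376, plus strand), was at 1.47, 1.54 and 1.48 TPM with dox and at 14.4, 14 and 13.9 TPM without. That is a 9.82-fold rise (log2 fold change 3.30 ± 0.24, edgeR adjusted p = 1.82e-10), with the -dox libraries at 14.6, 15.1 and 14 TPM. Its paralog Manf was at 49.7 to 55.5 TPM and 35.2 to 40.2 TPM, under the fold threshold at -0.41 on the log2 scale. Of 25 endoplasmic reticulum genes, 3 were called higher (Cdnf, Herpud1 and Crebrf) and none lower. By adjusted p alone in edgeR 3 were higher and 5 lower, and 16 of the 25 fold changes were below zero. Hspa5, the main chaperone of that compartment, was at 298 to 299 TPM and 229 to 243 TPM. Herpud1, which serves the degradation of misfolded proteins, rose from 158, 174 and 186 TPM to 262, 279 and 235 TPM, and missed the fold threshold without +/-dox replicate 2 (log2 fold change 0.53). Crebrf, a regulator of the stress response, missed it without +dox replicate 1 (0.58).

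Of 29 tested genes of the integrated stress response, 2 were higher and 2 lower. Wars, the tryptophanyl-tRNA synthetase, fell from 39.8, 32.2 and 61.8 TPM to 24.3, 23.4 and 25 TPM, and Aldh1l2, a mitochondrial folate enzyme, fell from 29.0, 35.6 and 25.4 TPM to 16.7, 16.8 and 18.1 TPM. Chac1, which breaks down glutathione, was at 1.22, 1.34 and 2.22 TPM with dox and 4.59, 3.57 and 2.46 TPM without, so the cohorts were separated by a narrow margin. Its call was lost without +dox replicate 1 (log2 fold change 1.11), +dox replicate 2 (1.13) or +/-dox replicate 1 (1.02). Cth, cystathionine gamma-lyase, was not called without +dox replicate 1 (log2 fold change 0.74), +dox replicate 2 (0.77), +/-dox replicate 1 (0.80), 2 (0.80) or 3 (0.92).

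Of 25 genes of sterol, fatty acid and triglyceride synthesis 3 fell and none rose. Lss, which closes the sterol rings, fell from 4.54, 5.11 and 5.04 TPM to 1.56, 1.40 and 1.68 TPM (log2 fold change -1.61 ± 0.16, edgeR adjusted p = 1.39e-08). Sqle, the enzyme before it in sterol synthesis, fell from 1.61, 1.10 and 2.01 TPM to 0.63, 0.63 and 0.80 TPM (edgeR adjusted p = 0.000301). The median log2 fold change of the list was -0.03. Dbi, a carrier of acyl-CoA, was among the most abundant genes that fell, from 566, 547 and 421 TPM to 293, 282 and 278 TPM (1.70-fold, edgeR adjusted p = 0.00115).

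Of 33 adrenergic and muscarinic signalling genes 2 rose and 3 fell. Adora1, the adenosine receptor that slows the heart, fell from 26.3, 23.8 and 21.8 TPM to 14.7, 15.1 and 14.6 TPM (edgeR adjusted p = 0.00287). Ppp1r1a, an inhibitor of protein phosphatase, fell from 19.2, 22.8 and 22.1 TPM to 11.7, 9.32 and 11.8 TPM, and Grk5, a kinase that desensitizes receptors, fell from 31.2 to 36.3 TPM to 19.6 to 21.3 TPM. Rgs2, which shortens Gq signalling, rose from 18.3 to 22.4 TPM to 26.6 to 31.4 TPM, and Adra1a, the alpha-1A adrenergic receptor, from 0.39 to 0.43 TPM to 0.62 to 0.77 TPM. Rgs16, of the same family as Rgs2 but outside the list, fell from 5.90, 6.53 and 6.02 TPM to 1.05, 1.21 and 1.51 TPM (log2 fold change -2.23 ± 0.32, edgeR adjusted p = 1.25e-05). The calls of Grk5 without +/-dox replicate 3 (log2 fold change -0.58) and of Rgs2 without +/-dox replicate 2 (0.51) fell short of the fold threshold. Adra1a was not called without +dox replicate 1 (0.88), +dox replicate 3 (0.76) or +/-dox replicate 1 (0.75).

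Of 22 ubiquitin ligase and autophagy genes, Fbxo32 and Klhl38 rose and Klhl30 fell. Fbxo32, the muscle ligase atrogin-1, was at 28.1, 30.3 and 33.9 TPM with dox and at 46.3, 46.7 and 46.8 TPM without (1.58-fold, edgeR adjusted p = 0.00229). Klhl38, a kelch protein of striated muscle, rose from 16.8, 20 and 24.1 TPM to 31.9, 35.4 and 36.6 TPM, and Klhl30, another of that family, fell from 53.8, 55.1 and 48.2 TPM to 29.9, 30.4 and 33.9 TPM (edgeR adjusted p = 4.5e-05). The reads of Fbxo32 and Klhl38 overlap Gm15943 on the opposite strand. Among 81 cytosolic ribosome genes the one called was Rpl3l, the muscle-specific form of Rpl3, which rose from 8.04, 8.07 and 8.73 TPM to 12.8, 14.5 and 15.2 TPM. Rpl3 itself was at 300 to 385 TPM and 333 to 375 TPM.

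Of the 10 genes with the smallest p-values, 5 fell and 5 rose, Ckmt2, Coq8a and Cdnf among the latter. Vxn, a neuronal differentiation factor, fell from 15.3, 15.3 and 17.9 TPM to 2.52, 2.68 and 2.27 TPM (log2 fold change -2.63 ± 0.13, edgeR adjusted p = 1.39e-15). Hagh, glyoxalase II, which clears methylglyoxal, fell from 127, 131 and 130 TPM to 49.0, 47.1 and 47.0 TPM (log2 fold change -1.37 ± 0.08, edgeR adjusted p = 3.69e-13). Dip2a, a receptor-like protein, fell from 14.1, 14.3 and 13.9 TPM to 5.43, 4.85 and 6.18 TPM (log2 fold change -1.31, edgeR adjusted p = 3.69e-13). The spread within a cohort was small beside the gap in each of these genes. Necap2, a protein of clathrin-coated vesicles, fell from 47.1, 48.0 and 44.8 TPM to 10.6, 9.12 and 11.2 TPM, and Nudt5, which hydrolyses ADP-ribose, from 17.1, 17.7 and 19.1 TPM to 6.18, 5.42 and 6.09 TPM. Gm7694, a predicted protein-coding gene, rose from 1.05, 1.13 and 1.3 TPM to 3.86, 4 and 4.53 TPM (3.71-fold, edgeR adjusted p = 9.31e-13). Lta4h, leukotriene A4 hydrolase, rose from 13.6, 14.4 and 17.6 TPM to 33.0, 30.5 and 37.3 TPM (2.31-fold, edgeR adjusted p = 3.46e-10).

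Larger folds were found at lower levels. Rimkla, a synthase of N-acetylaspartylglutamate, fell from 6.80, 6.88 and 7.48 TPM to 1.14, 0.86 and 0.78 TPM (7.33-fold). Sult4a1, a sulfotransferase-like protein best known from brain, fell from 3.03, 3.04 and 1.83 TPM to 0.23, 0.45 and 0.19 TPM (8.54-fold, edgeR adjusted p = 0.0011), and Shank2, a scaffold of synapses, from 3.08, 2.67 and 2.32 TPM to 0.45, 0.47 and 0.47 TPM. Vdr, the vitamin D receptor, fell from 23.1, 28.9 and 29.5 TPM to 6.01, 5.20 and 6.86 TPM (4.34-fold, edgeR adjusted p = 6.07e-08). Lad1, ladinin, an anchoring filament protein, rose from 4.17, 4.71 and 3.90 TPM to 16.3, 18.9 and 17.2 TPM (4.26-fold), and Stmnd1, of the stathmin family, from 0.22, 0.46 and 0.78 TPM to 1.84, 2.81 and 3.18 TPM. Crip2, a LIM-domain protein of heart, rose among abundant genes, from 472, 501 and 487 TPM to 804, 805 and 776 TPM (1.68-fold).

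Mbnl1, Mbnl2, Celf1 and Celf2 stayed under the fold threshold. Mbnl3 was not called, but its log2 fold change ranged from -1.51 to -0.055 over the alternative fits, past the fold threshold in some. Mbnl1 was at 60.1, 55 and 64.6 TPM with dox and at 54.3, 52.6 and 55 TPM without, and was not called (edgeR adjusted p = 0.436). Mbnl2 was at 134, 135 and 137 TPM against 103, 99.3 and 103 TPM, with a log2 fold change of -0.32 ± 0.09 that passed the adjusted p (0.0189) but not the fold threshold in edgeR. Celf1, a splicing regulator that opposes MBNL on many exons, was at 72.8, 70.9 and 66.2 TPM and 47.5, 44.1 and 47.6 TPM, and Celf2 was at 22.2, 23.2 and 27.5 TPM and 29.2, 29.3 and 34.4 TPM. On counts both passed the adjusted p of edgeR (0.000232 for Celf1 and 6.79e-05 for Celf2) and stayed under 1.5-fold, at -0.42 for Celf1 and 0.43 for Celf2 on the log2 scale. None of the 17 splicing regulators tested was called in edgeR or DESeq2, and 5 passed the adjusted p alone in edgeR, with 7 at an unadjusted p below 0.05.

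**Figure D3:**
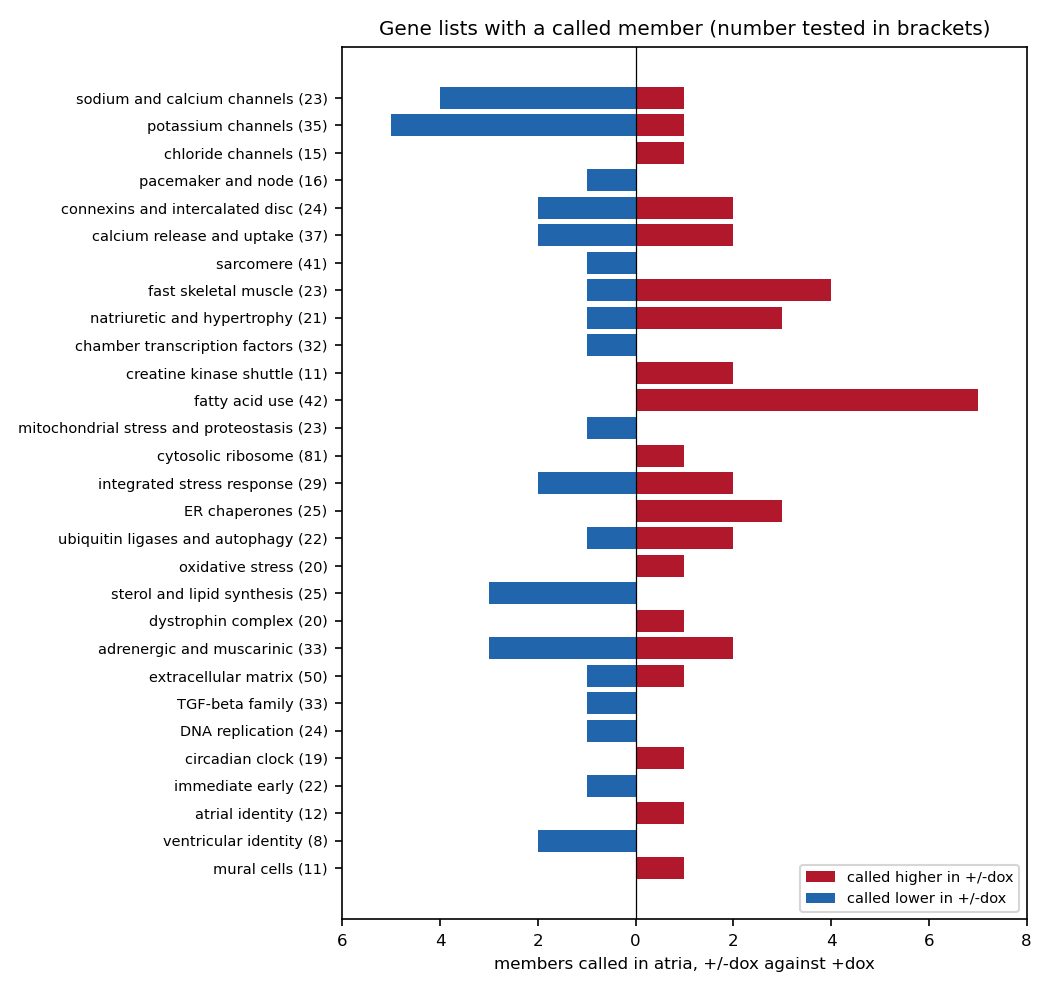
Number of members called higher (red, to the right) or lower (blue, to the left) in +/-dox than in +dox atria for each gene list that had a called member, with the number of members tested in brackets. Fatty acid use had 7 members higher and none lower, and potassium channels 1 higher and 5 lower.

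The summed level of mitosis genes was low in replicates 1 and 2 of +/-dox atria and not in replicate 3. The sum over 24 genes was 20, 17.4 and 17.7 TPM with dox and 9.13, 7.66 and 20.4 TPM without, and 10.5, 11.5 and 19.3 TPM in -dox atria. Without replicate 3, that is within the first library set, all 24 mitosis genes were lower with a median log2 difference of -1.20, and within the second set 5 were lower with a median of 0.40. With 36 libraries no mitosis gene was called in atria by edgeR or DESeq2, with 2 at an unadjusted p below 0.05 in edgeR, and the median log2 fold change was -0.42. With the 6 libraries compared, 1 mitosis gene was called lower in edgeR. In the ventricle of the same cohorts 14 of the 24 were called lower, where 3.52% of all genes were, and the sums were 63.4, 42.3 and 29.6 TPM with dox and 14.4, 12.8 and 16.3 TPM without. Of 24 DNA replication genes 1 fell in atria, Ccne1, cyclin E1, from 3.95, 3.45 and 3.21 TPM to 1.05, 1.06 and 0.78 TPM (log2 fold change -1.81 ± 0.27, edgeR adjusted p = 1.58e-05), and 14 fell in the ventricle. Library set and sex coincide in replicate 3, and their part in this pattern was not tested.

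Interferon and antigen presentation genes mostly had fold changes below zero that did not pass the test. The sums over 46 interferon response genes were 447, 312 and 872 TPM with dox and 283, 235 and 412 TPM without, and the sums over 22 antigen presentation genes were 1840, 1480 and 3970 TPM and 1130, 847 and 1570 TPM. The +dox replicate 3 was the highest library in both, and the cohorts overlapped in both. Of the interferon genes 42 had a log2 fold change below zero, with a median of -0.73, and none was called in edgeR or DESeq2 with 36 libraries, 7 having an unadjusted p below 0.05 in edgeR. Of the antigen presentation genes 20 were below zero, with a median of -0.90, and none was called in edgeR with 36 libraries (6 at an unadjusted p below 0.05), against 3 in DESeq2. With the 18 atrial libraries 1 interferon gene (Usp18) and 3 antigen presentation genes were called lower. With the 6 libraries compared, 3 interferon genes were called lower and no antigen presentation gene was called. H2-Ab1, a class II histocompatibility gene, was at 104, 70.4 and 216 TPM with dox and at 42.7, 23.4 and 46.6 TPM without, not called with 36 libraries (edgeR adjusted p = 0.0963) and called with the 18 atrial ones (0.0491). The summed level of T cell markers was 6.14 to 13.4 TPM with dox and 3.59 to 5.44 TPM without. All 12 T cell markers had a fold change below zero, and none was called in edgeR with 36 libraries (1 at an unadjusted p below 0.05). With the 18 atrial libraries 1 T cell marker was called lower. The part of T cells in the sums above was not tested.

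**Figure D4:**
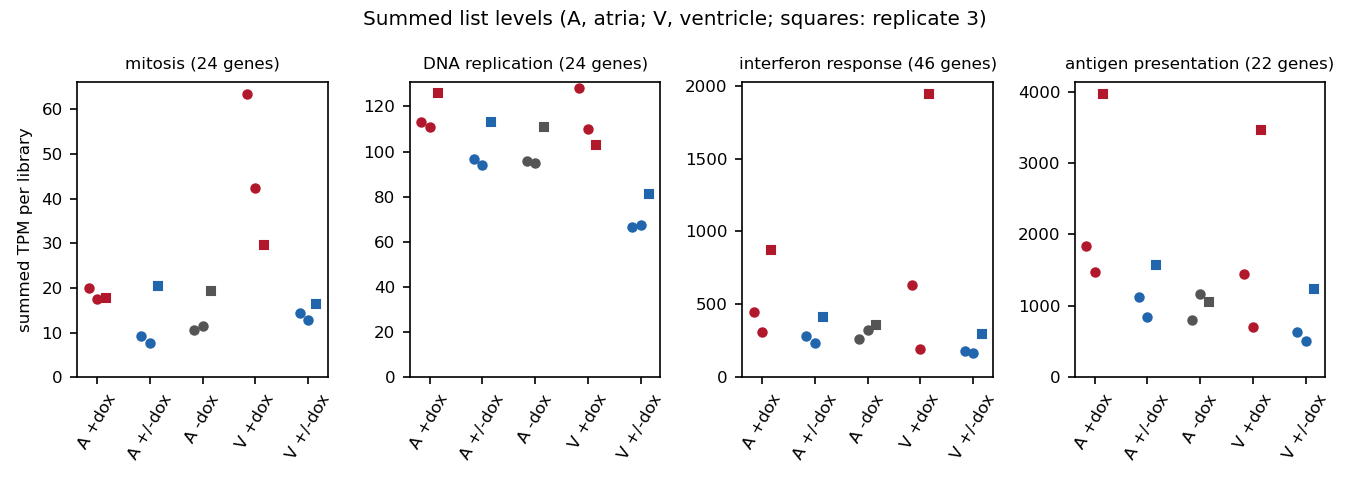
Summed TPM of the members of 4 gene lists (y axes, from zero) in each atrial (A) and ventricular (V) library, with squares for replicate 3. The mitosis sum of +/-dox atria was 9.13 and 7.66 TPM in replicates 1 and 2 and 20.4 TPM in replicate 3, whereas in the ventricle all 3 +/-dox libraries lay under 17 TPM.

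Markers of fibroblasts, endothelium, mural cells and fat mostly had fold changes above zero, and 1 was called, the mural cell marker Vtn. All 12 fibroblast markers were above zero in log2 fold change, with a median of 0.35, and none was called in edgeR or DESeq2. An unadjusted p below 0.05 was found for 6 of the 12 fibroblast and 8 of 14 endothelial markers, against 25.2% of all genes tested. The sums of the fibroblast markers were 3470, 3770 and 4450 TPM with dox and 4520, 4110 and 4890 TPM without, which overlapped. Of 14 endothelial markers 13 were above zero with a median log2 fold change of 0.24, and none was called in edgeR or DESeq2, and of 50 extracellular matrix genes 1 rose and 1 fell, with a median log2 fold change of 0.30. Vtn, vitronectin, an adhesion protein that pericytes express, rose from 2.29, 2.20 and 2.61 TPM to 4.40, 3.94 and 4.07 TPM (1.83-fold, edgeR adjusted p = 0.000464), and 8 of the 11 mural markers were above zero, with a median log2 fold change of 0.34. All 9 fat markers were above zero with a median log2 fold change of 1.13, the largest of these lists, and none was called or had an unadjusted p below 0.05 in edgeR. Fat markers had sums of 12.7, 16.5 and 37.1 TPM and 18.7, 19.0 and 53.2 TPM, which overlapped and were higher in the replicate 3 of each cohort, and lung markers, a tissue that lies beside the atria, summed to at most 0.19 TPM in the 6 libraries.

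Of the 767 called atrial genes 706 had a fold change of the same sign in the left ventricle (92.0%), as did 68.7% of all genes tested. In the ventricle 1270 genes were called by the same contrast (6.6% of those tested), and 311 genes were called in the same direction in both tissues, 40.5% of the atrial calls and 24.5% of the ventricular ones, with 1 called in opposite directions. That gene, Igfals, a binding protein of the insulin-like growth factor complex, was at 0.06, 0.07 and 0.04 TPM against 0.17, 0.14 and 0.26 TPM in atria, on 4 to 30 reads per library, and at 1.37, 1.36 and 0.99 TPM against 0.71, 0.55 and 0.59 TPM in the ventricle. The study took both tissues from 3 animals of each cohort, and the tissues shared no library. The 386 genes that were higher in atria had a median log2 fold change of 0.92 there and 0.60 in the ventricle, and the 381 that were lower had -0.85 and -0.61. A direct test of the difference between the tissues called 94 genes (0.489%), with 2438 at an unadjusted p below 0.05. It called 230 with the replicate number of a cohort as a block across tissues, although the labels do not say that a number marks 1 animal. Deviations of same-numbered atrial and ventricular samples from their group means correlated at 0.15, 0.17 and 0.26 in +dox and at 0.08, 0.06 and 0.20 in +/-dox. Crossed pairs of replicates 1 and 2 correlated at 0.03 and 0.04 in +dox and at 0.07 and 0.02 in +/-dox. Crossed pairs with a replicate 3 were negative. Of the 94, 26 were called in atria alone, 46 in the ventricle alone, 8 in both and 14 in neither. This count depended on single libraries: it was 37 without +dox atria replicate 2, 44 without +dox atria replicate 1, 45 to 61 without 1 of the +/-dox atria, 46 or 47 without +/-dox ventricle replicate 2 or 1, and 54 without +dox ventricle replicate 1.

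Some changes were larger in atria by the direct test. Dlg4, the postsynaptic scaffold PSD-95, fell from 23, 26.0 and 23.7 TPM to 7.64, 7.64 and 8.67 TPM in atria and was at 1.51, 2.09 and 1.52 TPM and 1.99, 1.92 and 2.26 TPM in the ventricle, a difference between tissues of -1.71 ± 0.18 on the log2 scale (edgeR adjusted p = 1.1e-06). Rims4, of a family that regulates vesicle release, fell from 1.83, 2.07 and 1.65 TPM to 0.31, 0.29 and 0.37 TPM in atria and was at 1.35, 1.18 and 0.97 TPM and 0.71, 0.69 and 1.08 TPM in the ventricle (edgeR adjusted p = 0.00172). Gja5 rose in atria and was at 1.63, 1.66 and 1.94 TPM and 1.68, 1.60 and 2.96 TPM in the ventricle (difference 1.47 ± 0.30, edgeR adjusted p = 0.0203). Pln, which was more abundant in the ventricle at 3170 to 4060 TPM and 3590 to 3890 TPM, rose in atria by 0.71 and had 0.07 in the ventricle (difference edgeR adjusted p = 0.039).

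Other changes were larger in the ventricle or opposite there. Kcna4 fell by 0.61 in atria and by 2.38 in the ventricle, from 2.35, 1.95 and 1.95 TPM to 0.41, 0.35 and 0.44 TPM (difference 1.78 ± 0.24, edgeR adjusted p = 0.000196). Igfbpl1, a secreted binding protein of the insulin-like growth factor family, fell from 35.8, 34.9 and 36.9 TPM to 17.8, 18.7 and 17.1 TPM in atria and from 3.13, 3.90 and 3.60 TPM to 0.34, 0.26 and 0.42 TPM in the ventricle. Sbk2, a kinase of atrial muscle, rose in both, from 203, 235 and 231 TPM to 396, 408 and 364 TPM in atria and from 2.05, 2.73 and 2.23 TPM to 13.3, 9.46 and 10.4 TPM in the ventricle. Tesc, tescalcin, a regulator of sodium-hydrogen exchange, had fold changes of opposite sign, with 5.68, 5.43 and 5.77 TPM against 2.76, 2.57 and 3.27 TPM in atria and 41.0, 37.3 and 45.1 TPM against 52.6, 60.9 and 64.3 TPM in the ventricle (difference -1.46 ± 0.21, edgeR adjusted p = 0.000259). Its ventricular change was 1.47-fold and passed the adjusted p (0.00315 in edgeR) but not the fold threshold.

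**Figure D5:**
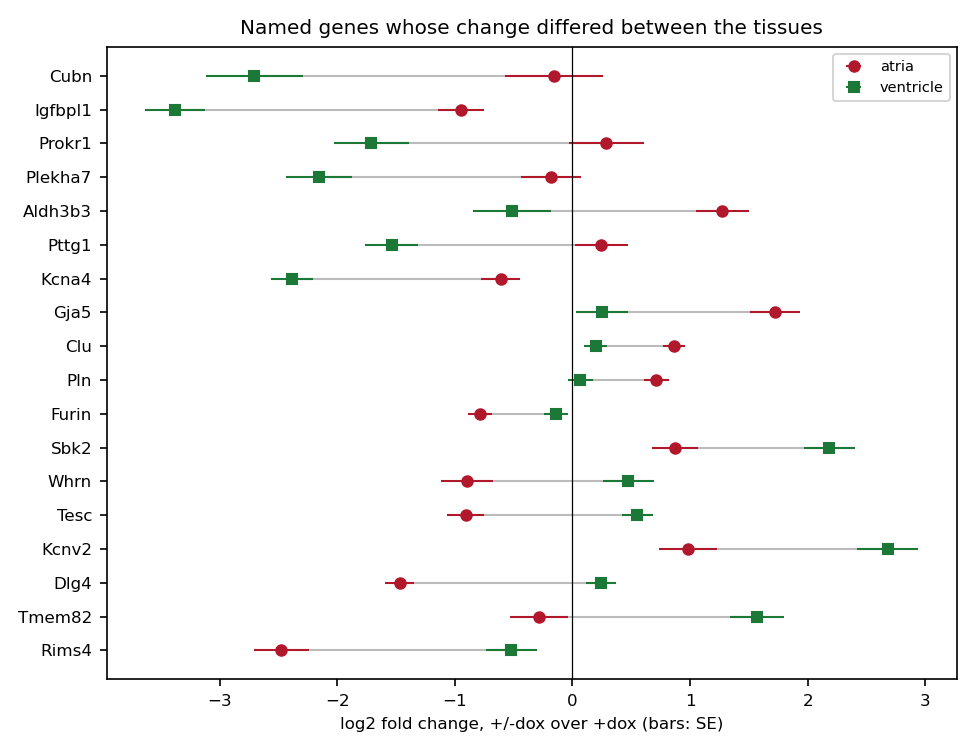
Log2 fold change of +/-dox over +dox (x axis, bars are standard errors) in atria (red circles) and left ventricle (green squares) for the 18 named genes whose change differed between the tissues. Kcna4 fell by 0.61 in atria and 2.38 in ventricle, and Dlg4 was at -1.47 in atria and 0.24 in ventricle.

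Atria that had never been induced were set beside those after withdrawal. Between -dox and +dox atria 1005 genes were called (5.23%), a comparison that shares the 3 +dox libraries with the one above. Ckmt2 had a log2 fold change over +dox of 1.64 after withdrawal and of 1.78 in -dox, Coq8a of 2.52 and 2.35, Cdnf of 3.30 and 3.32, Ryr2 of 0.72 and 0.69, and Vxn of -2.63 and -3.12. The shared +dox libraries tie each pair of values, and these genes were chosen by the first of them. Tested directly, -dox and +/-dox atria differed in 2 genes (0.0104%), with 907 at an unadjusted p below 0.05 (4.72% of all genes tested), and DESeq2 called 19. Among the 767 genes called after withdrawal, 83 (10.8%) had such a p in that comparison, which shares the +/-dox libraries with the first. Chd6, a chromatin remodeller, was at 7.83, 8.55 and 9.19 TPM with dox, 11.6, 12.0 and 13.3 TPM after withdrawal and 20.8, 24.7 and 21.9 TPM in -dox atria (log2 difference 0.85, edgeR adjusted p = 7.5e-08). The transcript 2310015A16Rik was at 21.6, 16.7 and 16.7 TPM, then 13.2, 11.7 and 5.71 TPM, and 2.66, 2.91 and 2.55 TPM (log2 difference -1.95, edgeR adjusted p = 3.42e-05). In both genes the +/-dox libraries lay between the other cohorts. A p that misses the threshold does not show that the remaining genes were alike, and with 3 animals per cohort small differences would not be called. Chd6 was itself called between +/-dox and +dox at 1.50-fold and fell under that fold without +dox replicate 1 (log2 fold change 0.57), +/-dox replicate 2 (0.53) or +/-dox replicate 3 (0.57), and 2310015A16Rik was not called without +dox replicate 1 (-0.60) or +/-dox replicate 3 (-0.47).

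The pseudogenes Gm13370 and Gm10240 held identical values and cannot be told apart. They were at 73.9, 60 and 111 TPM in +dox atria, at 51.3, 73.4 and 68.3 TPM in -dox atria, and in +/-dox atria they were listed at 0 in replicates 1 and 2 and at 4.96 TPM in replicate 3. In the ventricle they were at 23.2, 14.4 and 61.1 TPM with dox and listed at 0 in all 3 +/-dox libraries. The +/-dox cohort thus stood apart from both cohorts with and without dox, and what distinguishes its reads at these copies was not analysed here.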

How the data were processed

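RNA from atria and left ventricles of 21-week-old mice was poly(A)-selected, made into stranded libraries and sequenced as read pairs by the authors. The authors mapped reads with STAR 2.7.10b to mm10 and quantified GENCODE genes with RSEM 1.3.1. The deposited tables give estimated counts per gene symbol (RSEM expected counts, not scaled) and TPM (levels scaled by transcript length and library size) for 36 libraries in 12 groups of tissue and cohort, 3 animals each. RSEM divides reads that fit several genes by likelihood, so close copies and overlapping genes are uncertain, and the strand setting is not given in the sources used here. TPM accounts for isoform length and counts do not, so folds of the tables can differ.

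Expected counts were rounded to whole numbers and genes kept with filterByExpr (19231 genes). All 36 libraries were fitted with 1 mean per group in edgeR 4.0.16 (R 4.3.3), using TMM scaling, robust quasi-likelihood tests and Benjamini-Hochberg adjustment over all genes tested. A call needs an adjusted p below 0.05 and a fold of at least 1.5. P-values of the fit of 36 libraries measure the spread among the 3 animals within a group, estimated over all 12 groups of both tissues. They do not rest on the compared cohorts alone. The difference between tissues was tested as an interaction, without the pairing of tissues by animal. Alternatives used 18 or 6 libraries, DESeq2 1.42.0, limma 3.58.1 on log2(TPM + 1), other scaling, no filter, a library set term, a replicate block and fits without 1 library each. Scripts were checked on simulated counts.

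Groups came from the sample labels. Coordinates came from a GENCODE annotation of GRCm38, to which 53186 of 55291 symbols matched. Promoter windows came from RefSeq on GRCm38.p6. Named genes were those the study names for expression, the 10 with the smallest p and the 10 most abundant. The rule also took the 12 largest rises and 12 largest falls with a mean normalized count of at least 100. Only called genes with full separation of the cohorts were eligible as such rises and falls. Their separation was thus a condition of choice and not a result. The rule further took up to 6 called members per gene list and any member that defines it. Last came the 6 largest differences between tissues in each direction and the genes called between -dox and +/-dox. Slc27a1, Tnnt3, Tnni2, Kcnk1, Kcne1, Gm13370, Gm10240, Igfals and uncalled genes set beside a called one were named after their values were seen, and fits without 1 library were read for the genes of the rule. The members and the 51 gene lists were chosen with earlier results of these data known. Some genes are not reported here.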

Additional observations from a re-analysis of the deposited data

Results flagged for a closer look

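The 18 results given here are named genes whose change after withdrawal differed between atria and ventricle in the interaction test of edgeR at an adjusted p below 0.05 and a difference of at least 1.5-fold. Each value is the log2 fold change in atria minus that in the ventricle. Among genes of connection and rhythm the difference was 1.47 for Gja5, 1.78 for Kcna4 and -1.70 for Kcnv2, and among genes of calcium handling it was 0.65 for Pln. It was 0.67 for Clu and -0.65 for Furin, which code for secreted or secretory proteins. For genes best known from synapses or sensory cells it was -1.71 for Dlg4, -1.96 for Rims4 and -1.37 for Whrn. It was -1.46 for Tesc, -1.31 for Sbk2, 2.43 for Igfbpl1, 1.79 for Aldh3b3, 1.78 for Pttg1, 1.97 for Plekha7, 2.00 for Prokr1, 2.55 for Cubn and -1.85 for Tmem82. The tissues differ in base level for many of these genes, and the part of that in the differences was not tested.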

How the results depend on the processing

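The number of genes called between +/-dox and +dox atria (767) was 761 to 986 with the 18 atrial libraries, the 6 libraries compared, DESeq2, DESeq2's scaling in edgeR or a library set term, 554 with limma on TPM and 629 without the filter on low counts. It was 87 when the fold change was tested against 1.5, and 2426 by adjusted p alone. Leaving out 1 library gave 486 to 796, the lowest without +dox replicate 1. By adjusted p alone the ventricle gave 4187 (main 1270) and -dox against +dox atria 3060 (main 1005), and leaving out 1 library gave 1013 to 1306 and 696 to 1023. Between -dox and +/-dox atria (2) the count was 9 with the 18 atrial libraries, 19 with DESeq2, 4 by adjusted p alone, and 2 to 4 without 1 library, with 4 without -dox replicate 3. The difference between tissues (94) gave 198 with DESeq2 and 37 to 98 without 1 library. Members of gene lists called (70) were 47 to 68, and named genes called (97 of 109) were 70 to 85, without 1 library.

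The replicate numbers did not pair the atrial samples, since the deviations of same-numbered samples from their cohort means correlated at -0.04, 0.05 and 0.24. With the number as a replicate block the counts were 803, 1349, 1084 and 2 for the comparisons above, 73 list members and 97 named genes, and 230 for the difference between tissues.

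Of 1635 alternative values of the named genes, 1481 kept their direction and their side of the threshold, 149 lost the call and 4 gained it. The log2 fold change of Cubn in atria (-0.155) was -0.256 to 0.048 without 1 library, its sign turning without +dox replicate 1. Of the 97 named genes called, 54 were called under every alternative. With 3 animals per cohort, small changes are not detectable, and genes under a few TPM rest on few reads.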

Other observations

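Of 15 macrophage markers none was called in edgeR with 36 libraries (5 at an unadjusted p below 0.05), and 12 had a fold change below zero with a median log2 fold change of -0.18. With the 18 atrial libraries, and in DESeq2, 1 macrophage marker was called lower. Of 9 nerve and glia markers 8 were above zero, with a median of 0.56, and none was called in edgeR with 36 libraries (4 at an unadjusted p below 0.05). With the 18 atrial libraries, and with the 6 compared, 1 nerve and glia marker was called higher. Of 19 circadian clock genes 1 was called, Bhlhe41, a repressor of the clock. It was at 7.15, 7.30 and 9.00 TPM with dox, at 14.2, 11.5 and 11.9 TPM after withdrawal and at 7.98, 6.84 and 8.66 TPM in -dox atria, so the -dox libraries lay at the +dox level. The Bhlhe41 call was lost without +/-dox replicate 1 (log2 fold change 0.53), +/-dox replicate 2 (0.58) or +dox replicate 2 (0.58).

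Of 22 immediate early genes 1 was called lower, Fosb, at 1.78, 0.15 and 1.27 TPM with dox and 0.37, 0.38 and 0.36 TPM without, where the cohorts overlapped. Mt2, a metallothionein, was at 12.7, 16.2 and 11.7 TPM with dox and at 25.9, 29.7 and 19.1 TPM without (1.96-fold, edgeR adjusted p = 0.0253), and its call was lost without +/-dox replicate 1 (log2 fold change 0.94), +/-dox replicate 2 (0.78), +dox replicate 1 (0.95) or +dox replicate 3 (0.86).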
